A study of Mus musculus with 24 samples.

Results

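The 44 cell cycle genes described here are a list of genes that drive or mark cell division, fixed by name, and 40 of them were measured among the 30701 genes of the arrays. A gene was taken as measured where a probe cluster of the array named that gene alone, and each of the 40 was read by 1 such cluster. They comprise 13 of 14 DNA replication genes, 6 of 7 regulators of the step from G1 into S phase, all 3 genes used as general markers of cells between S phase and mitosis, and 18 of 20 mitosis genes. Ccnb1 was not listed in the probe table, and the clusters of Ccnd1, Mcm7 and Foxm1 also named a second gene, so these 4 were not analysed here.

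A dividing cell commits to a new round in G1, copies its DNA in S phase and segregates the copies in mitosis. Cyclin D and cyclin E, with their kinases, release E2F factors, which switch on the genes of origin licensing and DNA synthesis, among them the Mcm helicase subunits. The mitosis genes are switched on later, in G2, and many of them carry promoter elements that repress them in resting and G1 cells. In the intestine, division takes place mainly in the crypts of the adult and in the intervillus regions of the fetus and newborn, while organoids grow as crypt-like buds of epithelium in medium with growth factors.

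The study measured total RNA of mouse intestine on Affymetrix arrays, with 4 arrays in each of 6 groups. Adult intestinal organoids were taken after 30 and after 3 days of culture, and organoids started from embryonic day 19 (E19) fetal intestine were taken after the same 30 and 3 days. All organoids were grown in ENR, a standard organoid medium with EGF, Noggin and R-spondin. Whole intestine of adult mice and of newborn mice at postnatal day 0 (P0) gave the tissue groups, and the labels name no strain, genotype or treatment for any group. They also do not say whether the 4 arrays of a group came from separate mice or cultures, so p-values measure only the spread between these arrays, which may be technical.

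Values are log2 signals, so a difference of 1 is a 2-fold difference. The array medians over all genes lay between 4.996 and 5.221, and the 40 genes lay between 4.48 and 11.01. The background probes averaged 4.04 on replicate 1 of the fetal day 3 organoids, against 3.03 to 3.63 on the other 23 arrays. Epithelial markers were at a mean level of 10.46 to 10.63 in the 4 organoid groups, against 10.46 in adult tissue and 9.89 in P0 tissue. The 9 measured mesenchyme and smooth muscle markers averaged 4.93 to 5.28 in adult organoids at both days and in fetal organoids at day 30, and 6.25 ± 0.37 (SD, n = 4) in fetal organoids at day 3, against 7.22 ± 0.27 in adult tissue and 8.60 ± 0.27 in P0 tissue. Stomach and pancreas markers averaged 6.82, 8.97, 8.94 and 4.99 on the fetal day 3 arrays, against at most 5.62 on any array of the other groups. The 7 measured leukocyte markers averaged 5.11 in adult day 30 organoids, 5.30 in adult day 3 organoids, 5.004 in fetal day 30 organoids and 5.53 in fetal day 3 organoids, against 6.54 in adult tissue and 5.16 in P0 tissue. One of them, Ptprc, was at 3.73 or lower on every organoid array, against a mean of 5.96 in adult tissue and 4.14 in P0 tissue. The arrays hold RNA of whole samples, so fewer cells of a type and less RNA per cell cannot be told apart.

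Most of the 40 genes were higher in organoids than in whole intestine. E2f8 was an exception, with a mean of 8.02 in adult day 30, 8.02 in fetal day 30 and 7.82 in fetal day 3 organoids, against 8.20 in P0 tissue. The tissue groups differed in which phase of the cycle was the lower one. Each gene was set to its mean over all 24 arrays and the deviations were averaged within a role group. The DNA replication score was 0.39 ± 0.21 in adult day 30 organoids, 0.51 ± 0.16 in adult day 3 organoids, 0.35 ± 0.30 in fetal day 30 organoids and 0.32 ± 0.23 in fetal day 3 organoids, against -0.84 ± 0.17 in adult tissue and -0.73 ± 0.15 in P0 tissue (SD, n = 4). The mitosis score was 0.38 ± 0.26 in adult day 30 organoids, 0.56 ± 0.16 in adult day 3 organoids, 0.40 ± 0.36 in fetal day 30 organoids and 0.31 ± 0.25 in fetal day 3 organoids, against -0.57 ± 0.20 in adult tissue and -1.08 ± 0.26 in P0 tissue. The difference of the scores, replication minus mitosis, averaged 0.01 and -0.05 in adult organoids at day 30 and day 3 and -0.05 and 0.01 in fetal organoids at day 30 and day 3. It was -0.46 to -0.18 on the adult tissue arrays, against 0.21 to 0.50 on the P0 arrays, with no overlap. These scores are descriptions and carry no test.

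**Figure D1:**
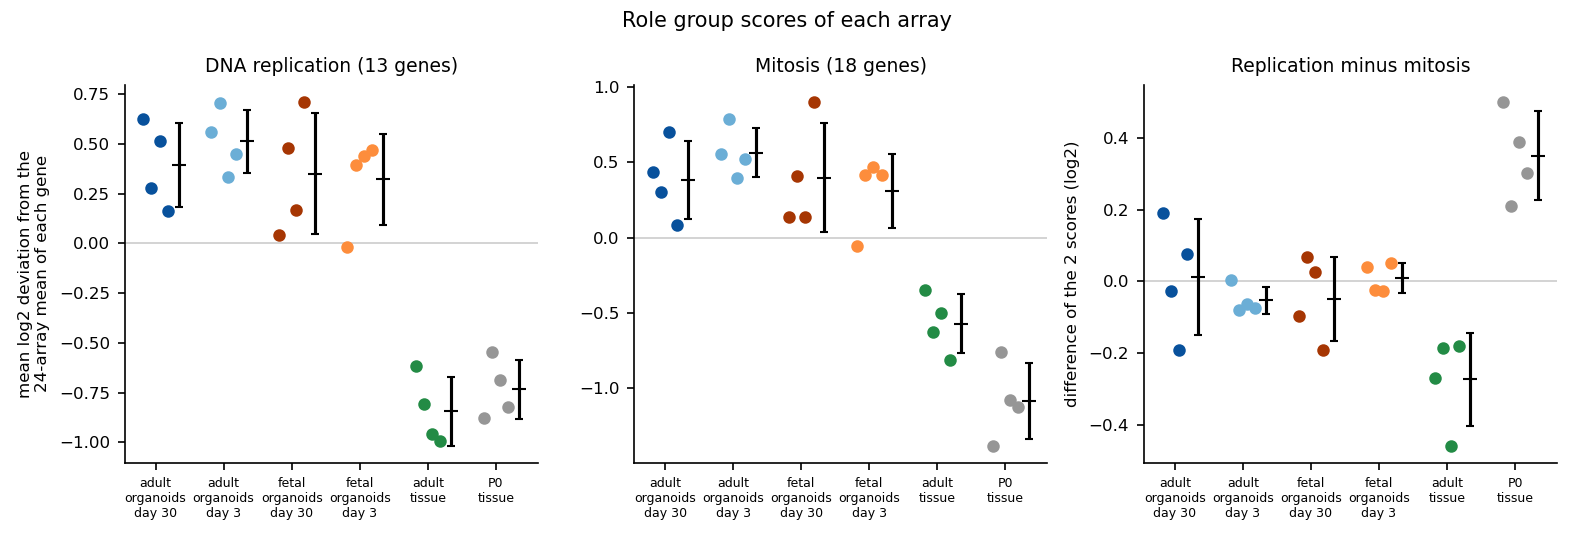
Scores of the DNA replication genes (left), the mitosis genes (middle) and their difference (right) on each of 24 arrays, in log2 units, by group. Points are arrays and bars are the mean ± SD of 4 arrays; the tissue arrays lie below all organoid arrays in the left and middle plots, and the adult and P0 tissue arrays lie on opposite sides of 0 in the right plot.

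For 25 of the 40 genes (62.5%) every one of the 16 organoid arrays was above every one of the 8 tissue arrays, against 6.92% of all genes. This held for 11 of 13 DNA replication genes, 12 of 18 mitosis genes, 1 of 3 S to M markers (Ccna2) and 1 of 6 G1/S regulators (Ccnd2). The group with the lowest mean was P0 tissue for 29 genes and adult tissue for 11. These 11 were Mcm2, Mcm3, Mcm4, Mcm6, Pcna, Rrm2, Tyms, Ccnd2, Ccne1, E2f1 and E2f8, with no mitosis gene among them.

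Adult day 3 organoids were compared with adult intestine to ask how freshly cultured adult epithelium differs from whole adult intestine. The labels do not link the organoids to the mice of the tissue group. All 40 genes were higher in the organoids and none was lower, nor was any lower at an unadjusted p under 0.05 (limma, adjusted p under 0.05 over all 30701 genes). Over all genes, 21.9% were called higher and 13.5% lower. The median difference of the 40 was 1.23, against 0.02 over all genes, and 30 were at least 2-fold higher. The arrays of the groups did not overlap for any of the 40. How many of all genes stood apart in this way was not counted, so this is not read as particular to the 40.

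DNA replication genes had a median difference of 1.36 here, and 11 of 13 were at least 2-fold higher. Mcm4, a subunit of the replicative helicase, was at 8.19, 8.35, 7.83 and 8.17 in adult day 3 organoids, against 6.57, 6.31, 6.13 and 5.80 in adult tissue, a difference of 1.93 ± 0.21 (SE), or 3.81-fold (adjusted p = 9.3e-08). Every organoid array was more than 1 log2 unit above the highest tissue array, and replicate 4 was the lowest of the tissue. Its partner subunits Mcm5 (1.72 ± 0.18, adjusted p = 6e-08), Mcm3 (1.68 ± 0.24, adjusted p = 4.8e-06) and Mcm6 (1.60 ± 0.15, adjusted p = 1.1e-08) rose by similar amounts. Tyms, which makes thymidylate for DNA synthesis, was 1.57 ± 0.13 higher (adjusted p = 1.8e-09). Pcna, the sliding clamp of the DNA polymerases, was at 10.32, 10.42, 10.14 and 10.19 in the organoids, against 9.19, 9.12, 9.14 and 9.21 in adult tissue (1.10 ± 0.13, adjusted p = 4.9e-07). The smallest replication difference was that of Cdt1, a licensing factor that loads the helicase (0.62 ± 0.10, adjusted p = 2.8e-05).

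Among the G1/S regulators, Ccnd2, a D-type cyclin, was at 10.52, 10.58, 10.49 and 10.48 in adult day 3 organoids, against 9.26, 9.14, 9.11 and 8.46 in adult tissue. The organoid arrays lay close together, the tissue arrays were spread more widely, and the difference was 1.53 ± 0.14 (adjusted p = 7.7e-09). The E cyclins Ccne1 (1.29 ± 0.21, adjusted p = 2.6e-05) and Ccne2 (1.16 ± 0.23, adjusted p = 0.00022), which activate Cdk2 at the start of S phase, were also higher. E2f8, an atypical E2F factor that represses E2F target genes, was at 8.24, 8.39, 8.14 and 8.20 in the organoids, against 7.43, 7.28, 7.08 and 6.79 in adult tissue (1.10 ± 0.16, adjusted p = 4.3e-06). E2f1, an activating E2F factor, had the smallest difference of the 40 (0.62 ± 0.09, adjusted p = 1.1e-05).

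The S to M markers and the mitosis genes had median differences of 1.23 and 1.15. Mki67, the proliferation antigen Ki-67, was at 10.53, 10.71, 10.24 and 10.40 in adult day 3 organoids, against 9.63, 9.30, 9.40 and 8.58 in adult tissue (1.24 ± 0.21, adjusted p = 4.9e-05). Top2a, the topoisomerase that untangles replicated chromosomes, was at 8.67, 8.82, 8.41 and 8.47, against 7.86, 7.37, 7.44 and 6.79 in adult tissue (1.23 ± 0.20, adjusted p = 3.3e-05). For both genes the groups stood apart and tissue replicate 4 was the lowest array. Ccnb2, a B-type cyclin of mitosis, was 1.52 ± 0.17 higher (adjusted p = 1.9e-07), and Cdk1, the kinase it activates, was 1.34 ± 0.16 higher (adjusted p = 3.7e-07). The smallest mitosis difference was that of Bub1b, a component of the spindle checkpoint (0.70 ± 0.19, adjusted p = 0.0044).

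Markers of other cells moved with this comparison. All 9 measured mesenchyme markers, all 5 endothelial markers and 6 of 7 leukocyte markers were lower in adult day 3 organoids than in adult tissue, while 3 of 8 epithelial markers were higher and 3 lower. Their part in the result was not tested. Xist, the RNA of the inactive X chromosome, was at 9.81 to 11.58 on all organoid arrays, against 3.77 to 4.24 on all adult tissue arrays, so whatever goes with it cannot be told apart from the step from tissue to organoid in the adult comparison.

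Fetal day 3 organoids were compared with P0 intestine, the tissue group nearest to E19 in age. Of the 40 genes, 38 were higher in the organoids and 1 was lower, and 26 were at least 2-fold higher. Over all genes, 30.5% were called higher and 13.8% lower, and the median difference was 1.16 for the 40, against 0.14 over all genes. The groups did not overlap for 38 of the 39 called genes, and Mcm6 overlapped. Here too the share without overlap over all genes was not counted. The uncalled gene was Ccne2 (0.52 ± 0.23, adjusted p = 0.066), which was called with the compared groups fitted alone (adjusted p = 0.0052).

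The role groups stood in another order than in the adult comparison. Here the mitosis genes had a median difference of 1.22 and the S to M markers 1.46, against 0.99 for DNA replication genes and 0.58 for G1/S regulators. Kif23, a kinesin of the central spindle needed for cytokinesis, was at 8.31, 8.93, 9.08 and 8.45 in fetal day 3 organoids, against 5.96, 6.73, 6.15 and 6.26 in P0 tissue. It had the largest difference of the 40, 2.42 ± 0.20 or 5.35-fold (adjusted p = 2.8e-09), and its lowest organoid array was far above its highest P0 array. Cdc20, which activates the anaphase-promoting complex, was at 8.18, 8.51, 8.79 and 8.78 in the organoids, against 6.07, 6.72, 6.44 and 6.02 in P0 tissue (2.25 ± 0.17 or 4.75-fold, adjusted p = 9.6e-10). The mitotic kinase Plk1 (1.89 ± 0.19, adjusted p = 5.7e-08), Ccnb2 (1.75 ± 0.17, adjusted p = 5e-08) and Bub1b (1.62 ± 0.19, adjusted p = 4.6e-07) followed. Mki67 was at 9.48, 10.44, 10.39 and 10.19 in the organoids, against 8.37, 8.90, 8.54 and 8.54 in P0 tissue (1.54 ± 0.21, adjusted p = 5.2e-06).

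Mcm2, another helicase subunit, was at 8.01, 8.44, 8.51 and 8.70 in fetal day 3 organoids, against 7.85, 7.87, 7.95 and 7.49 in P0 tissue (0.63 ± 0.16, adjusted p = 0.0027). Mcm6 was at 7.90, 8.66, 8.47 and 8.62, against 7.63, 7.93, 7.71 and 7.51 in P0 tissue (0.72 ± 0.15, adjusted p = 0.00061), and organoid replicate 1 lay below the highest P0 array. Other helicase subunits stood further apart, as Mcm3 (1.67 ± 0.24, adjusted p = 8.2e-06) and Mcm4 (1.29 ± 0.21, adjusted p = 3.9e-05) show. E2f8 was the gene called lower: it was at 7.40, 7.96, 7.90 and 8.01 in the organoids, against 8.30, 8.40, 8.10 and 8.01 in P0 tissue (-0.39 ± 0.16, adjusted p = 0.048). Its groups met at 8.01 without overlapping. This call ended with the compared groups fitted alone (adjusted p = 0.054), without fetal replicate 1 (-0.25, adjusted p = 0.21) or 3 (-0.41, adjusted p = 0.057), and without P0 replicate 1 (-0.35, adjusted p = 0.11), 2 (-0.32, adjusted p = 0.13) or 3 (-0.42, adjusted p = 0.057). It also ended without P0 replicates 1 and 4 (-0.43, adjusted p = 0.095) or 2 and 3 (-0.34, adjusted p = 0.2).

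Markers of other cells moved with the fetal comparison too. All 9 mesenchyme markers and all 5 endothelial markers were lower in fetal day 3 organoids than in P0 tissue. Of 8 stomach and pancreas markers 7 were higher, with a median of 3.23, as were 6 of 8 epithelial markers, of which 1 was lower. Of 7 leukocyte markers 4 were higher and 2 lower, with a median of 0.36. Their part in these differences was not tested.

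**Figure D2:**
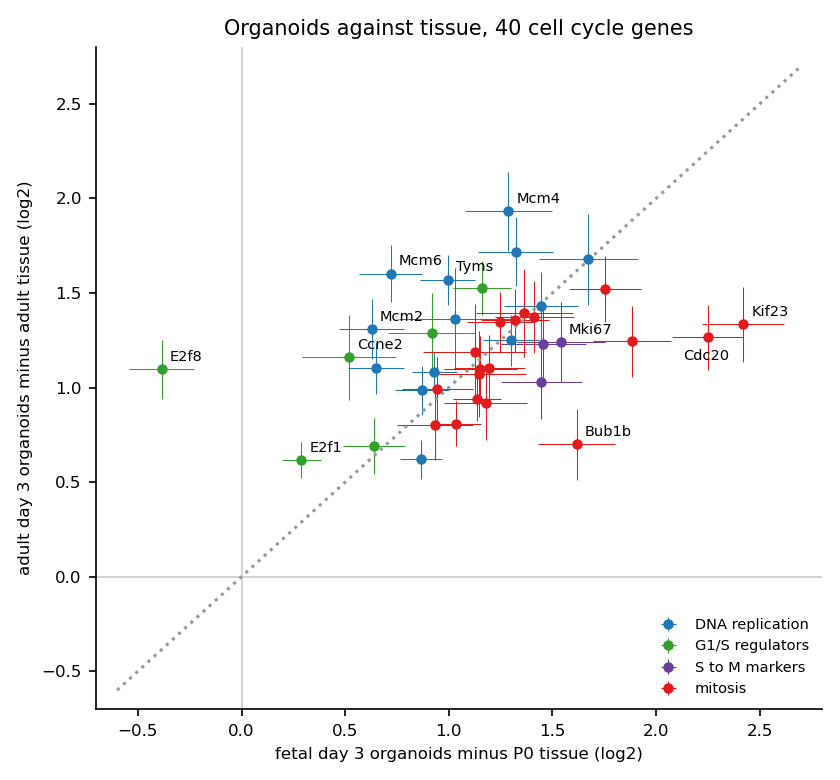
Difference between adult day 3 organoids and adult tissue (vertical axis, log2) against the difference between fetal day 3 organoids and P0 tissue (horizontal axis, log2) for the 40 genes, coloured by role group; bars are standard errors and the dotted line marks equal differences. E2f8, Mcm6 and Mcm2 lie above the line, and Kif23, Cdc20 and Bub1b lie below it.

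Whether these organoid differences themselves differed was tested directly, in a comparison added after the values were seen, as the adult difference (day 3 organoids minus adult tissue) minus the fetal one (day 3 organoids minus P0 tissue). It called 4 of the 40 genes higher and 3 lower, against 13.6% and 13% of all genes, so the 40 were called less often than genes in general. E2f8 had the largest value, 1.48 ± 0.22 (adjusted p = 3.3e-05), followed by Mcm6 (0.88 ± 0.21, adjusted p = 0.0038), Mcm2 (0.68 ± 0.22, adjusted p = 0.026) and Tyms (0.58 ± 0.19, adjusted p = 0.025). The fetal difference was the larger one for Kif23 (-1.08 ± 0.28, adjusted p = 0.0062), Cdc20 (-0.98 ± 0.24, adjusted p = 0.0045) and Bub1b (-0.92 ± 0.26, adjusted p = 0.013). Counting direction alone, the adult difference was larger for 10 of 13 DNA replication genes and 6 of 6 G1/S regulators, but for 5 of 18 mitosis genes and 0 of 3 S to M markers. The same values are the adult minus fetal difference of day 3 organoids minus the adult minus P0 difference of tissue. For the replication minus mitosis score the organoid part was -0.06, the tissue part -0.62 and the result 0.56. For this split the test thus largely restates the tissue comparison with its sign turned. That does not hold for each called gene: the organoid part was 0.52 of 0.58 for Tyms and -0.52 of -0.92 for Bub1b. Of the cell type markers in the same test, 7 of 8 for stomach and pancreas (median -2.98), 6 of 7 for leukocytes (median -2.08) and 6 of 8 for epithelium (median -0.82) were lower, while 3 of 5 for endothelium and 2 of 9 for mesenchyme were higher. Their part was not tested.

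E2f8, Mcm6 and Cdc20 held their calls in all 27 alternatives run for this test, and Kif23 in 26, the exception being the fit without fetal day 3 replicates 2 and 3 (-0.77, adjusted p = 0.055). Mcm2 was not called without fetal day 3 replicate 1 (0.55, adjusted p = 0.063), adult day 3 replicate 2 (0.64, adjusted p = 0.054), P0 replicate 3 (0.63, adjusted p = 0.056), adult tissue replicate 3 (0.58, adjusted p = 0.058) or P0 replicates 2 and 3 together (0.56, adjusted p = 0.13). Tyms was not called without fetal day 3 replicate 1 (0.51, adjusted p = 0.057), adult day 3 replicate 2 (0.51, adjusted p = 0.06), P0 replicate 2 (0.50, adjusted p = 0.062), P0 replicate 3 (0.54, adjusted p = 0.051), adult tissue replicate 4 (0.48, adjusted p = 0.065) or P0 replicates 2 and 3 together (0.41, adjusted p = 0.18). Bub1b was not called without fetal day 3 replicates 2 and 3 (-0.73, adjusted p = 0.073), without P0 replicates 1 and 4 (-0.75, adjusted p = 0.075) or with arrays centred on their median (-0.80, adjusted p = 0.051). At an adjusted p under 0.01, Mcm2, Tyms and Bub1b were not called.

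Adult and P0 intestine were compared to ask how the tissue itself differs between birth and adulthood. In adult tissue 11 of the 40 genes were higher and 5 were lower, against 15% and 12.2% of all genes. The direction of the calls followed the role groups. The 11 genes higher in adult tissue were all S to M markers or mitosis genes. The 5 lower ones, near the share over all genes, were 2 DNA replication genes and 3 G1/S regulators. Of the 21 S to M markers and mitosis genes, all 21 had a positive difference, with a median of 0.52, and none was lower, nor was any lower at an unadjusted p under 0.05. Of the 19 replication and G1/S genes, 11 had a negative difference, with a median of -0.12, and none was higher, nor was any higher at an unadjusted p under 0.05. The 13 DNA replication genes alone had 7 negative and 6 positive differences, with a median of -0.06. The median over all genes was 0.08.

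Kif23 was at 7.64, 7.19, 7.40 and 6.78 in adult tissue, against 5.96, 6.73, 6.15 and 6.26 in P0 tissue, a difference of 0.98 ± 0.20 (adjusted p = 0.00058). The lowest adult array, replicate 4, was just above the highest P0 array, replicate 2. Cdc20 was at 7.41, 7.09, 7.38 and 6.93 in adult tissue, against 6.07, 6.72, 6.44 and 6.02 in P0 tissue (0.89 ± 0.17, adjusted p = 0.00037). Ccnb2 was at 7.61, 7.41, 7.38 and 7.22 in adult tissue, against 6.22, 6.86, 6.60 and 6.46 in P0 tissue (0.87 ± 0.17, adjusted p = 0.00048). Neither gene overlapped between the groups. Birc5, the survivin subunit of the chromosomal passenger complex (0.59 ± 0.12, adjusted p = 0.00055), and Cenpa, the histone variant of centromeres (0.48 ± 0.12, adjusted p = 0.0027), also stood apart without overlap. How many of all genes stood apart between adult and P0 tissue was not counted. Plk1 (0.75 ± 0.19, adjusted p = 0.0042), Cenpf, a kinetochore protein (0.53 ± 0.17, adjusted p = 0.023), and Prc1, which bundles spindle midzone microtubules (0.52 ± 0.17, adjusted p = 0.024), were higher with overlapping arrays. Cdk1 was at 6.95, 6.78, 6.82 and 6.49 in adult tissue, against 6.31, 7.07, 6.73 and 6.78 in P0 tissue, and was not called (0.04 ± 0.16, adjusted p = 0.88).

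Mki67 was at 9.63, 9.30, 9.40 and 8.58 in adult tissue, against 8.37, 8.90, 8.54 and 8.54 in P0 tissue (0.64 ± 0.21, adjusted p = 0.028). Top2a was at 7.86, 7.37, 7.44 and 6.79 in adult tissue, against 6.29, 7.12, 6.66 and 6.61 in P0 tissue (0.69 ± 0.20, adjusted p = 0.013), and Ccna2, the cyclin of S phase and G2, was 0.59 ± 0.19 higher (adjusted p = 0.028). For Mki67 and Top2a adult replicate 4 fell within the P0 arrays.

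E2f8 was at 7.43, 7.28, 7.08 and 6.79 in adult tissue, against 8.30, 8.40, 8.10 and 8.01 in P0 tissue, and fell by 1.06 ± 0.16 (0.481-fold, adjusted p = 1.3e-05). P0 tissue had the second highest of its 6 group means. Mcm2 was at 7.22, 7.12, 6.75 and 7.08 in adult tissue, against 7.85, 7.87, 7.95 and 7.49 in P0 tissue (-0.75 ± 0.16, adjusted p = 8e-04). Mcm6 was at 7.28, 7.21, 7.05 and 6.79 in adult tissue, against 7.63, 7.93, 7.71 and 7.51 in P0 tissue (-0.62 ± 0.15, adjusted p = 0.0036). Ccnd2 (-0.60 ± 0.14, adjusted p = 0.0024) and E2f1 (-0.31 ± 0.09, adjusted p = 0.018) were the other genes that fell, and for all 5 the adult arrays lay below all P0 arrays. The share of all genes that stood apart in this way was not counted, so this is not read as particular to them. Ccne1 was at 5.96, 5.89, 5.95 and 5.57 in adult tissue, against 6.21, 6.63, 6.44 and 6.20 in P0 tissue, without overlap but not called (-0.53 ± 0.21, adjusted p = 0.066). Mcm4 (-0.44 ± 0.21, adjusted p = 0.13) was not called either. The other subunits Mcm3 (-0.12 ± 0.24, adjusted p = 0.75) and Mcm5 (0.06 ± 0.18, adjusted p = 0.83) were nearer to 0.

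**Figure D3:**
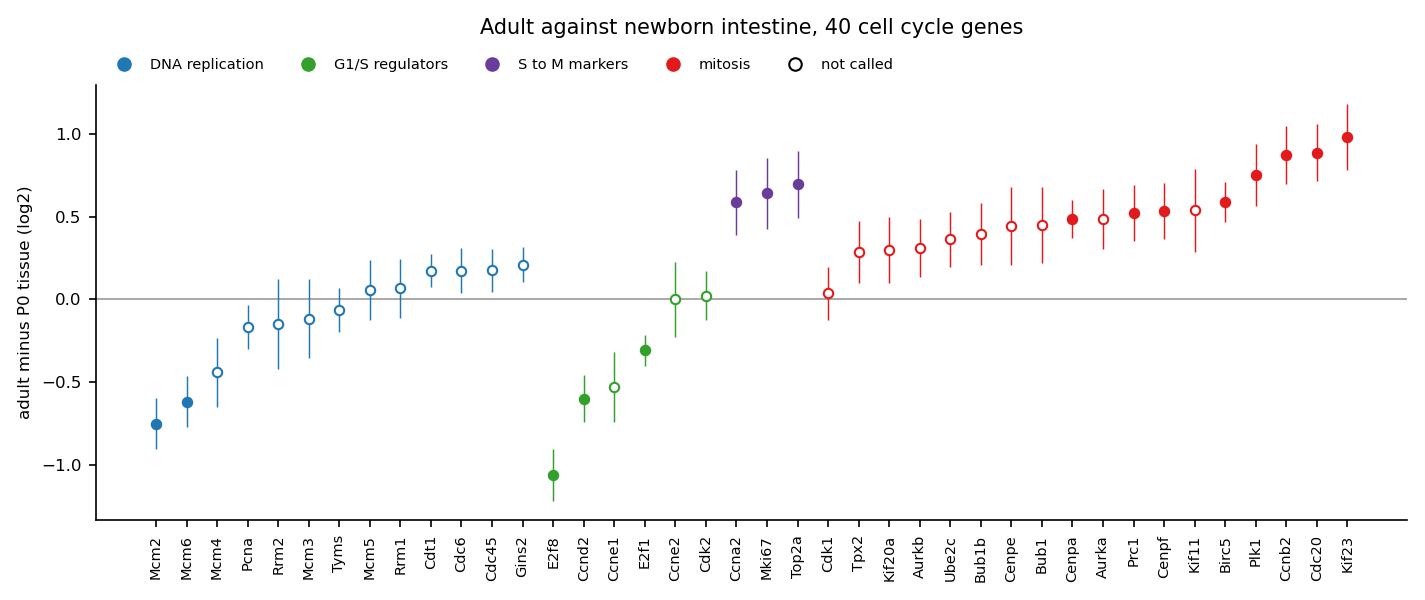
Difference between adult and P0 whole intestine (log2) for each of the 40 genes, grouped by role; bars are standard errors and open circles were not called. All S to M markers and mitosis genes lie above 0, while Mcm2, Mcm6, E2f8, Ccnd2 and E2f1 are called below it.

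Kif23, Cdc20, Ccnb2, Birc5, Cenpa, E2f8, Mcm2 and Ccnd2 held their calls in all 18 alternatives. The count of genes higher in adult tissue was 6 without P0 replicate 1, 7 without P0 replicate 4, 6 without adult tissue replicate 1 and 5 without P0 replicates 1 and 4 together. Mki67 and Ccna2 each lost their call when any of P0 replicates 1, 3 and 4 or adult tissue replicates 1, 2 and 3 was left out, with Mki67 at 0.51 to 0.62 (adjusted p from 0.053 to 0.095) and Ccna2 at 0.48 to 0.59 (adjusted p from 0.051 to 0.098). Top2a lost its call without P0 replicate 1 (0.57, adjusted p = 0.062) or adult replicate 1 (0.53, adjusted p = 0.058). Cenpf lost its call without P0 replicate 1 (0.51, adjusted p = 0.059) or 4 (0.48, adjusted p = 0.061) or adult replicate 1 (0.40, adjusted p = 0.089). Prc1 lost its call without P0 replicate 1 (0.46, adjusted p = 0.081), 3 (0.50, adjusted p = 0.057) or 4 (0.48, adjusted p = 0.06) or adult replicate 1 (0.43, adjusted p = 0.079) or 3 (0.49, adjusted p = 0.057). E2f1 lost its call without adult replicate 3 (-0.27, adjusted p = 0.057).

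Xist was at 10.60 and 10.53 on P0 replicates 1 and 4, against 3.81 and 4.01 on P0 replicates 2 and 3. Adult tissue, which had no Xist signal, was therefore also compared with each pair alone, so each newborn group held only a pair of arrays. P0 replicate 1 was also the lowest P0 array for 28 of the 40 genes, and replicate 2 the highest for 34. What goes with Xist and what else sets these arrays apart cannot be told apart here. With P0 replicates 2 and 3 as the newborn group 5 of the 40 genes were higher in adult tissue and 5 lower, against 10.6% and 9.29% of all genes. With P0 replicates 1 and 4 as the newborn group 10 were higher and 3 lower, against 8.08% and 8.22% of all genes. Against replicates 2 and 3 alone, Mki67, Top2a, Ccna2, Plk1, Cenpf and Prc1 were not called (0.35 to 0.51, adjusted p from 0.12 to 0.25). Against replicates 1 and 4 alone, Mki67 (0.77, adjusted p = 0.05), Mcm6 (-0.49, adjusted p = 0.08) and E2f1 (-0.27, adjusted p = 0.14) were not called. Cell type markers moved with the comparison too: 7 of 8 epithelial markers were higher in adult tissue, with a median of 0.50, and 8 of 9 mesenchyme markers and 5 of 5 endothelial markers were lower. Of 7 leukocyte markers 6 were higher and 1 was lower, with a mean level of 6.54 in adult tissue, against 5.16 in P0 tissue. Their part in the result was not tested.

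The promoters of 3 genes that were higher in adult tissue and 3 that were lower are printed as examples from different role groups. Whether their elements have a part in the tissue difference was not tested. Each is the 250 bases before the gene's start from RefSeq, build GRCm38.p6, written 5′ to 3′ on the gene's strand. Capitals mark matches, on either strand, to TTTGAA or TTCGAA (the cell cycle genes homology region, bound by the repressor complex DREAM), to TTCGCGC or TTGGCGC (E2F sites, which overlap each other on opposite strands in Mcm6) and to CCAAT (the site of the factor NF-Y). The genes that fell were Mcm2 (chr6:88898781-88899030, minus strand), Mcm6 (chr1:128359706-128359955, minus strand) and E2f8 (chr7:48881597-48881846, minus strand), and those that rose were Cdc20 (chr4:118437344-118437593, minus strand), Kif23 (chr9:61946800-61947049, minus strand) and Ccnb2 (chr9:70421555-70421804, minus strand).
Mcm2: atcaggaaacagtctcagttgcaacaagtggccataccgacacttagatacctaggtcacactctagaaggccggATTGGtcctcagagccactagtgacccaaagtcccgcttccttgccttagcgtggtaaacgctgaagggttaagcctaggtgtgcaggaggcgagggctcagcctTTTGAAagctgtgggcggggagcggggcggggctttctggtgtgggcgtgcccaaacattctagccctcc
Mcm6: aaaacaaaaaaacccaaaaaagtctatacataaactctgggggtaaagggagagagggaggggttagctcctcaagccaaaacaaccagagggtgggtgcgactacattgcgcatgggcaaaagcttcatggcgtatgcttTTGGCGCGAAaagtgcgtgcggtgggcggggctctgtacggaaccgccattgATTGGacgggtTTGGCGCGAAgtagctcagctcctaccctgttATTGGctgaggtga
E2f8: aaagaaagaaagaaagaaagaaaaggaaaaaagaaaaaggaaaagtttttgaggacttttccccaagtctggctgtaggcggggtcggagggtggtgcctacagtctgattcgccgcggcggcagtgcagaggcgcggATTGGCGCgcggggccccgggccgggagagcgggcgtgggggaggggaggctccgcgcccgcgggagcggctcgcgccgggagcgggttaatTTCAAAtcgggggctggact
Cdc20: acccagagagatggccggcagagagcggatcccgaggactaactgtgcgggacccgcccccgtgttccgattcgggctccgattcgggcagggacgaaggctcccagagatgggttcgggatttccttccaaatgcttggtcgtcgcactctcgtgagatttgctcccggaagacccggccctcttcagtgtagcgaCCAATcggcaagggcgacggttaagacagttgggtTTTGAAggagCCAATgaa
Kif23: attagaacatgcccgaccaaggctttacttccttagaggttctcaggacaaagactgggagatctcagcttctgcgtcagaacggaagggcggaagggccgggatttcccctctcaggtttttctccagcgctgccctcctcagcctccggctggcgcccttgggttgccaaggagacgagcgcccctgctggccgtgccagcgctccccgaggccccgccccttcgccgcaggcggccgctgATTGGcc
Ccnb2: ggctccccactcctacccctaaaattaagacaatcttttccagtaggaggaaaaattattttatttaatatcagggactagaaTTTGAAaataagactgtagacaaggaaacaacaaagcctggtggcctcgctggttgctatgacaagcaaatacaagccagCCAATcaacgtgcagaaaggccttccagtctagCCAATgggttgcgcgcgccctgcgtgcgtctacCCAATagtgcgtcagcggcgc

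Counting back from the gene's start, Mcm6 held E2F matches at positions -109 to -100 and -46 to -37. E2f8 held an E2F match at -111 to -105, which overlapped a reversed CCAAT at -112 to -108. Mcm2 held no E2F match, and it held a reversed CCAAT at -175 to -171. Mcm6 held a reversed CCAAT at -57 to -53 and at -14 to -10. The 3 mitosis genes also held no E2F match, and they held CCAAT at 1 position (Kif23, reversed, -7 to -3), at 2 (Cdc20, -53 to -49 and -8 to -4) or at 3 (Ccnb2, -87 to -83, -54 to -50 and -21 to -17). TTTGAA stood at -18 to -13 in Cdc20, at -167 to -162 in Ccnb2, at -70 to -65 in Mcm2 and, reversed, at -20 to -15 in E2f8. A promoter was listed for 32 of the 40 genes. CCAAT was found in 14 of 15 mitosis promoters (93.3%) and 8 of 11 replication promoters (72.7%), against 34.5% of all 27025 promoters. The homology region was found in 6 of 15 mitosis promoters (40%) and 2 of 11 replication promoters (18.2%), against 17.4% of all promoters. An E2F match was found in 5 of the 32 (15.6%), in Mcm5, Mcm6, E2f8, Mki67 and Cdk1, against 3.23% of all promoters. A match describes these letters in this window and no more.

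**Figure D4:**
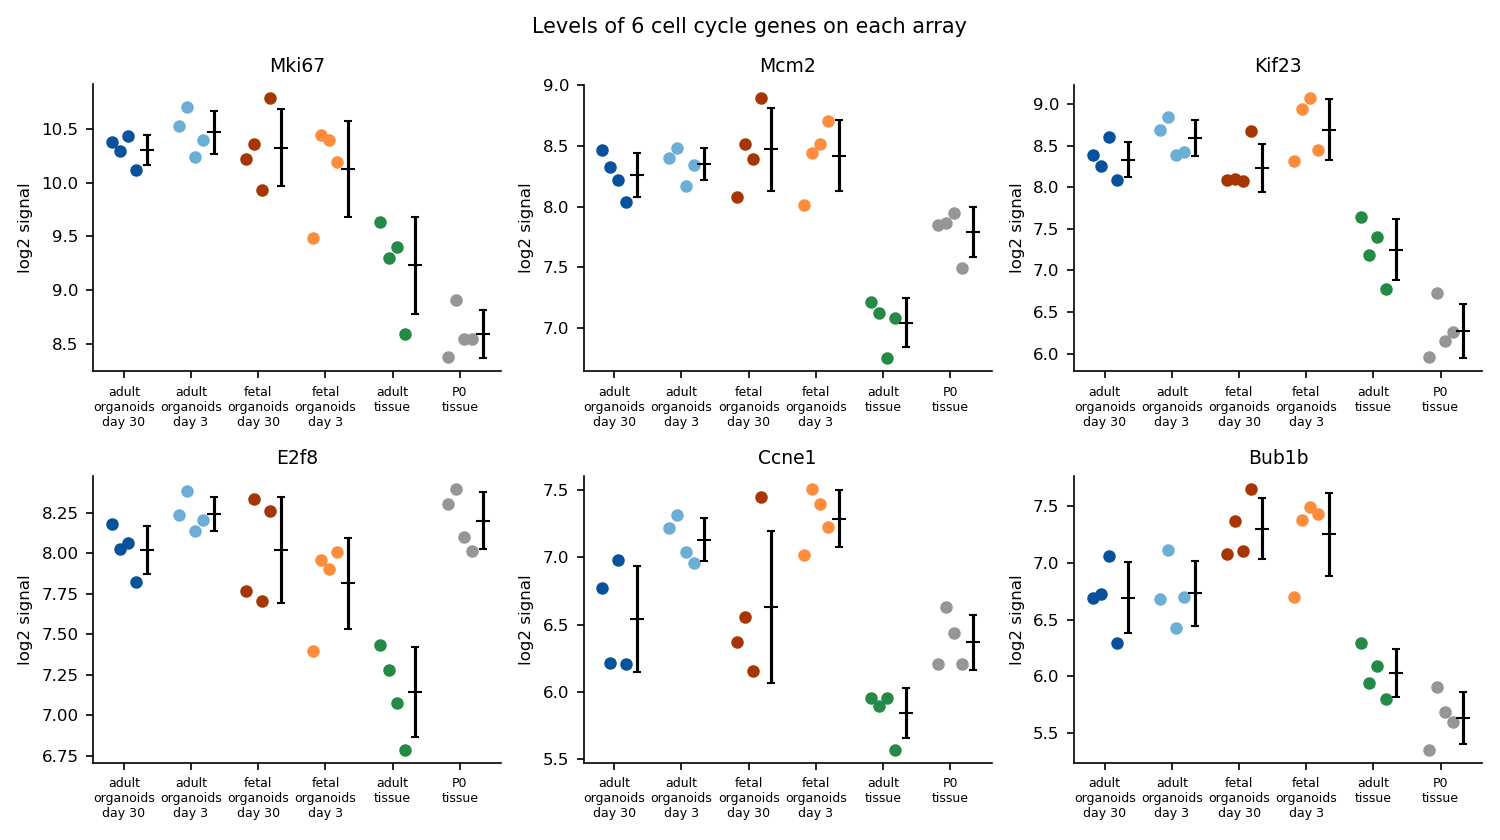
Log2 signal of Mki67, Mcm2, Kif23, E2f8, Ccne1 and Bub1b on each of 24 arrays, by group, with points for arrays and bars for the mean ± SD of 4 arrays. Mcm2 and E2f8 are lower in adult than in P0 tissue, Kif23 is lowest in P0 tissue, and Bub1b is lower in adult than in fetal organoids at day 30 without overlap.

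Few of these genes were called over culture. In fetal organoids none was higher at day 30 than at day 3 and 1 was lower, against 6.77% and 8.76% of all genes (1 was higher at an unadjusted p under 0.05). The gene that fell was Ccne1, which was at 6.37, 6.55, 6.16 and 7.45 at day 30, against 7.02, 7.51, 7.40 and 7.22 at day 3 (-0.65 ± 0.21, 0.636-fold, adjusted p = 0.036). The groups overlapped, since day 30 replicate 4 was above 3 of the day 3 arrays, and without that array the difference was -0.92 (adjusted p = 0.00075). The call ended without day 3 replicate 2 (-0.58, adjusted p = 0.1) or 3 (-0.62, adjusted p = 0.086) and without day 30 replicate 1 (-0.57, adjusted p = 0.11), 2 (-0.63, adjusted p = 0.078) or 3 (-0.50, adjusted p = 0.14). Kif11, the motor that separates spindle poles, was at 7.83, 8.02, 7.70 and 8.64 at day 30, against 6.94, 7.54, 7.65 and 7.67 at day 3, without overlap but not called (0.60 ± 0.25, adjusted p = 0.11). Kif23 (-0.46 ± 0.20, adjusted p = 0.13) was not called either. Markers of other cells moved over fetal culture: 8 of 9 mesenchyme markers (median -1.15), 5 of 5 endothelial markers, 6 of 8 stomach and pancreas markers (median -2.91) and 3 of 7 leukocyte markers were lower at day 30 than at day 3. Their part in the changes over fetal culture given here, and in those of the CDK inhibitors and Mycn, was not tested.

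In adult organoids no gene of the 40 was called between day 30 and day 3, against 0.0261% of all genes higher and 0.0228% lower. At an unadjusted p under 0.05, 1 was higher and 3 were lower. Counting direction alone, 35 had a negative and 5 a positive difference, against 15 and 25 over fetal culture. Ccne1 was at 6.77, 6.21, 6.98 and 6.21 at day 30, against 7.22, 7.31, 7.04 and 6.96 at day 3 (-0.59 ± 0.21, adjusted p = 0.4), and replicates 2 and 4 were the low arrays. Ccnd2 was at 10.94, 10.84, 10.58 and 10.95 at day 30, against 10.52, 10.58, 10.49 and 10.48 at day 3 (0.31 ± 0.14, adjusted p = 0.55). The fetal change minus the adult change was called for none of the 40, against 2.99% of all genes, with 1.02% higher and 1.97% lower. Of the 40, 1 was higher and 0 lower at an unadjusted p under 0.05, and by direction alone 36 were positive and 4 negative. The largest value of this difference was that of Kif11 (0.72 ± 0.35, adjusted p = 0.37). Over adult culture no marker of these cell types was called, and in the difference of the changes 3 mesenchyme, 2 endothelial, 2 leukocyte and 1 stomach and pancreas marker were lower.

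**Figure D5:**
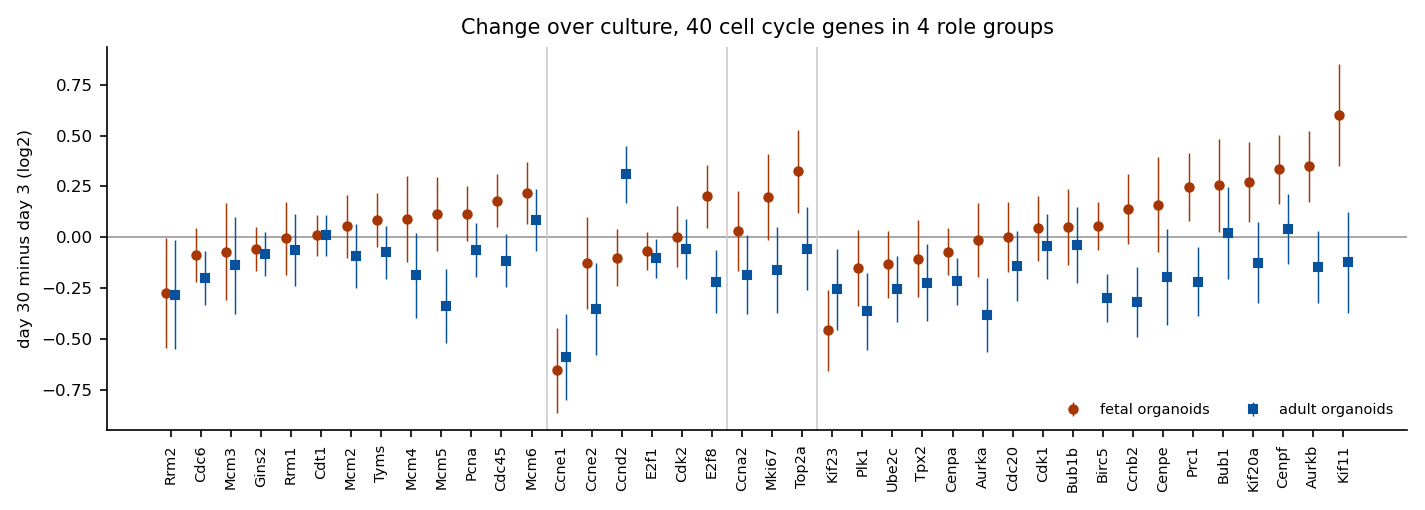
Difference between day 30 and day 3 of culture (log2) for each of the 40 genes in fetal organoids (circles) and adult organoids (squares), with standard errors; vertical lines separate DNA replication genes, G1/S regulators, S to M markers and mitosis genes. Ccne1 in fetal organoids, at -0.65, is the single change that was called.

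Adult and fetal organoids were compared at each day. At day 3, 7 of the 40 genes were higher in adult organoids and 1 was lower, against 14.5% and 10.1% of all genes. Ccnb2 was at 8.94, 9.10, 8.81 and 8.86 in adult organoids, against 7.85, 8.54, 8.32 and 8.45 in fetal organoids (0.64 ± 0.17, adjusted p = 0.0087). Tyms was at 9.02, 9.13, 8.84 and 8.78 in adult organoids, against 8.22, 8.58, 8.47 and 8.44 in fetal organoids (0.52 ± 0.13, adjusted p = 0.0056). Neither overlapped, and both held their calls in all 17 alternatives. The share of all genes without overlap between these organoid groups was not counted. Ccne2 (0.64 ± 0.23, adjusted p = 0.041), Prc1 (0.57 ± 0.17, adjusted p = 0.015), E2f8 (0.43 ± 0.16, adjusted p = 0.049), Gins2, a subunit of the GINS complex of the helicase (0.36 ± 0.11, adjusted p = 0.016), and Birc5 (0.36 ± 0.12, adjusted p = 0.028) were also higher. The count of higher genes was 2 without fetal replicate 1, 2 without adult replicate 2 and 4 without adult replicate 1. E2f8 lost its call in 11 of 17 alternatives (0.29 to 0.54, adjusted p from 0.034 to 0.2 over all 17), Ccne2 in 8 (adjusted p from 0.014 to 0.15), Birc5 in 6 (adjusted p from 0.02 to 0.098), and Prc1 and Gins2 in 3 each. Without fetal replicate 1 none of these 5 genes was called, with E2f8 at 0.29 (adjusted p = 0.2) and Ccne2 at 0.55 (adjusted p = 0.12). Markers of other cells moved with this comparison: 7 of 9 mesenchyme markers (median -1.02), 5 of 5 endothelial markers and 7 of 8 stomach and pancreas markers (median -2.77) were lower in adult organoids, and of 7 leukocyte markers 1 was higher and 2 lower. Their part was not tested.

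Bub1b was the gene lower in adult organoids at both days. At day 30 it was at 6.70, 6.72, 7.06 and 6.29 in adult organoids, against 7.08, 7.37, 7.11 and 7.65 in fetal organoids (-0.61 ± 0.19, adjusted p = 0.042), and the groups did not overlap. At day 3 it was at 6.68, 7.12, 6.43 and 6.70 in adult organoids, against 6.70, 7.38, 7.49 and 7.43 in fetal organoids (-0.52 ± 0.19, adjusted p = 0.045), and fetal replicate 1 was within the adult arrays. At day 30 no gene was higher, against 6.8% of all genes, with 2 at an unadjusted p under 0.05, and Bub1b was the single lower one, against 2.17% of all genes. Its day 30 call ended without fetal replicate 2 (-0.59, adjusted p = 0.099) or 4 (-0.49, adjusted p = 0.13) and without adult replicate 1 (-0.61, adjusted p = 0.09), 2 (-0.62, adjusted p = 0.069) or 4 (-0.48, adjusted p = 0.16). No mesenchyme, endothelial, leukocyte or stomach and pancreas marker was called at day 30. Without fetal replicate 4, 4 genes were higher at day 30, and 1 was without adult replicate 2 or 4. Its day 3 call ended without any of fetal replicates 2, 3 and 4 or adult replicates 1, 3 and 4 (-0.51 to -0.42, adjusted p from 0.088 to 0.14).

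The genes moved together between arrays of a group. Fetal day 3 replicate 1 was the lowest array of its group for 39 of the 40 genes, and adult day 3 replicate 2 was the highest of its group for 39. Fetal day 30 replicate 4 was the highest for 36, adult tissue replicate 1 the highest for 36 and P0 replicate 2 the highest for 34. Adult tissue replicate 4 was the lowest for 30 and P0 replicate 1 for 28. The count of called genes is therefore not a count of independent results. Fetal day 3 replicate 1 and adult tissue replicate 4 also had the highest medians over all genes (5.221 and 5.211, against 5.095 or lower on the other arrays). The part of this in their low values was not tested.

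Further genes of the same machinery were read from lists by pathway. Of 25 measured other replication genes, all 25 were higher in adult day 3 organoids than in adult tissue (median 1.01) and 24 were higher in fetal day 3 organoids than in P0 tissue. Of 36 measured other mitosis genes, 34 were higher in the adult comparison, and in the fetal comparison 35 were higher and 1 was lower. Over all genes, 21.9% were higher in the adult comparison, and 30.5% were higher and 13.8% lower in the fetal one. Between adult and P0 tissue 8 of these mitosis genes were higher and none was lower (1 at an unadjusted p under 0.05), against 15% and 12.2% of all genes, among them Hmmr (0.82 ± 0.22, adjusted p = 0.0066), Cdca3 (0.66 ± 0.15, adjusted p = 0.0019) and Nusap1, which bundles spindle microtubules (0.66 ± 0.18, adjusted p = 0.009). Of the 25 other replication genes 1 was higher and 2 were lower in adult tissue, both below those shares: the thymidine kinase Tk1 (0.61 ± 0.12, adjusted p = 0.00047), the origin recognition subunit Orc6 (-0.55 ± 0.13, adjusted p = 0.0023) and the polymerase alpha subunit Pola2 (-0.38 ± 0.11, adjusted p = 0.013). Hmmr and Nusap1 were not called without P0 replicates 1 and 4 (adjusted p = 0.12 each).

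The brakes of the cycle were measured for all 10 listed CDK inhibitors and pocket proteins. In adult against P0 tissue 7 of the 10 were higher and 1 was lower, against 15% and 12.2% of all genes: the inhibitors Cdkn1a (1.19 ± 0.19, adjusted p = 2.9e-05) and Cdkn2b (0.98 ± 0.09, adjusted p = 2.5e-08) and the pocket protein Rb1 (0.78 ± 0.14, adjusted p = 0.00018) rose, and the inhibitor Cdkn1c fell (-1.25 ± 0.12, adjusted p = 2.4e-08). Rb1, read from the brightest of its clusters, held this call in all 18 alternatives, at 0.45 to 0.92. In adult against fetal organoids at day 3, 3 were higher and 4 lower, against 14.5% and 10.1% of all genes, with Cdkn1b at 1.04 ± 0.10 (adjusted p = 2.5e-07) and Cdkn1c at -1.21 ± 0.12 (adjusted p = 2.2e-07). In fetal organoids at day 30 against day 3, 3 were higher and 2 lower, against 6.77% and 8.76% of all genes, with Cdkn1c at -0.93 ± 0.12 (adjusted p = 1e-05), Cdkn2b at -0.47 ± 0.09 (adjusted p = 0.0013) and Cdkn1b at 0.56 ± 0.10 (adjusted p = 0.00061). Rb1 was among the higher ones (0.51, adjusted p = 0.017) but lost its call in 6 of 17 alternatives. With the mean of its clusters it was at 0.26 (adjusted p = 0.18). The fetal change of Cdkn1c differed from the adult one (-0.85 ± 0.17, adjusted p = 0.005). Cdkn1a was higher in fetal day 3 organoids than in P0 tissue (1.24 ± 0.19, adjusted p = 1.4e-05) and lower in adult day 3 organoids than in adult tissue (-0.62 ± 0.19, adjusted p = 0.011), a difference of -1.86 ± 0.26 (adjusted p = 1.8e-05).

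Of 12 other G1 regulators, 1 was higher and 3 were lower in adult than in P0 tissue, against 15% and 12.2% of all genes: E2f2 (0.83 ± 0.12, adjusted p = 1.2e-05), Cdk4, the kinase of the D cyclins (-0.75 ± 0.10, adjusted p = 3.1e-06), Ccnd3, another D-type cyclin (-0.72 ± 0.09, adjusted p = 7e-07), and E2f5 (-0.62 ± 0.16, adjusted p = 0.0067). Mycn, a growth-promoting transcription factor, was lower in adult than in fetal organoids at day 3 (-0.91 ± 0.11, adjusted p = 1.7e-06). In fetal organoids it was lower at day 30 than at day 3 (-0.65 ± 0.11, adjusted p = 0.00016), and this change differed from that in adult organoids (-0.77 ± 0.15, adjusted p = 0.004). Both fetal culture changes, that of Mycn and that of Cdkn1c, held their calls in all 17 alternatives, the one without fetal day 3 replicates 2 and 3 among them. Several of these comparisons share arrays, the fetal day 3 arrays above all, so their values are not independent of each other.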

How the data were processed

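Total RNA of 24 mouse samples was labelled with biotin and hybridised to Affymetrix arrays. The deposited values are log2 signals per probe set, made by the authors with Affymetrix Expression Console and RMA per the submitters' processing notes. Their versions, the build and the set of arrays that entered each RMA run are not stated there. RMA sets the arrays of a run to a common distribution of probe signals, so a difference is relative to the array as a whole. The array medians over the named genes still ran from 4.996 to 5.221.

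Of 65956 transcript clusters, 32750 had a gene symbol, 31258 named a single gene and 1492 several, which were left out. For 442 genes with several clusters the brightest by mean signal was kept, leaving 30701 genes. A model of the 6 group means was fitted to all 24 arrays with limma 3.58.1 in R 4.3.3 (moderated two-sided test, 18 residual and 4.25 prior degrees of freedom), with Benjamini-Hochberg adjustment over all genes and a call at an adjusted p under 0.05. Tables and figures were made with Python 3.11.15, numpy 2.4.6, pandas 2.3.3 and matplotlib 3.10.9. The fit was tested on simulated data with known shifts, drawn independently for each gene and array. Such data lack the joint movement of genes between arrays of a group, so they do not bear on the counts of called genes. The number of arrays limits the precision. All 40 genes passed a filter on dim genes, which kept 16966.

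All listed cell cycle genes could be named, with values per array for a fixed set and for those with the largest change in a comparison; of each pathway list up to 3 called genes per direction were named, beside genes named again in another comparison. The genes, the lists and the tests were chosen with earlier results of these data known. Alternatives were a mean of all clusters, the filter on dim genes, another prior, the compared groups alone, centred arrays, a second quantile normalization, the replicate number as a block, a stricter threshold and arrays left out.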

Additional observations from a re-analysis of the deposited data

Results flagged for a closer look

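Of 114 groups of 4 arrays examined, 9 held an array far from the other 3, where chance flags about 1 in 20. Fetal day 3 replicate 1 had a DNA replication score of -0.018, against 0.39 to 0.47 on the other 3 arrays, and a mitosis score of -0.058, against 0.42 to 0.47. The same array was low for Top2a (7.86, against 8.19 to 8.24), Cdk1 (7.62, against 8.07 to 8.12) and Bub1b (6.70, against 7.38 to 7.49), and it had the highest background probe mean of all arrays, 4.04; the part of that background was not tested. Kif23 was high on fetal day 30 replicate 4 (8.67, against 8.07 to 8.10). Pcna was low on P0 replicate 1 (9.16, against 9.38 to 9.40). Adult tissue replicate 4 was low for Ccne1 (5.57, against 5.89 to 5.96) and Ccne2 (5.15, against 5.52 to 5.58).

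The organoid minus tissue difference itself differed between adult and fetal or newborn samples for 7 of the 40 genes (4 higher and 3 lower). That is a smaller share than the 26.6% of all genes. Adult minus fetal, the value was 1.48 for E2f8, 0.88 for Mcm6, 0.68 for Mcm2, 0.58 for Tyms, -0.92 for Bub1b, -0.98 for Cdc20 and -1.08 for Kif23. The change over culture differed between fetal and adult organoids for 1 of 10 CDK inhibitors and pocket proteins, Cdkn1c (-0.85). It also differed for 1 of 12 other G1 regulators, Mycn (-0.77). Of 36 other mitosis genes 1 differed, the condensin subunit Ncapd2 (0.67, adjusted p = 0.032), and of 25 other replication genes 0. The share over all genes was 2.99%. The Ncapd2 call was lost in 10 of 25 alternatives (adjusted p from 0.012 to 0.078 over all 25).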

How the results depend on the processing

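All 40 genes stayed higher in adult day 3 organoids than in adult tissue in every alternative, and 37 to 39 of 40 stayed higher in fetal day 3 organoids than in P0 tissue; no direction of a called gene reversed. Counts with few calls moved. With the compared groups alone, the gene lower over fetal culture, those lower in adult organoids at day 3 and day 30 and the one lower in fetal organoids than in P0 tissue each became 0, and 12 were higher in adult organoids at day 3. With arrays centred on their median, the counts lower over fetal culture and lower in adult organoids at both days were 0, and 7 were higher in adult than in P0 tissue. With a second quantile normalization, 4 were higher and 2 lower in adult organoids at day 3. With the filter on dim genes, 1 was higher in adult organoids at day 30. At an adjusted p under 0.01, 2 were higher and 0 lower in adult organoids at day 3, 0 lower at day 30, 0 lower over fetal culture, 6 higher in adult than in P0 tissue, 0 lower in fetal organoids than in P0 tissue, and 2 higher in the difference between the organoid comparisons. The cause of these moves was not tested.

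Leaving out 1 array at a time gave 0 to 2 genes lower over fetal culture, 2 to 8 higher and 0 to 1 lower in adult organoids at day 3, 0 to 4 higher and 0 to 1 lower at day 30, 37 to 38 higher and 0 to 1 lower in fetal organoids than in P0 tissue, 6 to 14 higher and 4 to 5 lower in adult than in P0 tissue, and 2 to 5 higher and 3 to 4 lower in the difference between the organoid comparisons. Without fetal day 3 replicates 2 and 3, the arrays with the highest stomach and pancreas markers (means of 8.97 and 8.94, against 6.82 on replicate 1, which stayed in), 0 were lower over fetal culture, 0 lower in adult organoids at day 3 and 1 lower in that difference. Without P0 replicates 1 and 4, 5 were higher in adult tissue and 0 lower in fetal organoids; without P0 replicates 2 and 3, an alternative chosen after seeing the data, 3 were lower in adult tissue, 0 lower in fetal organoids and 2 higher in that difference.

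Samples were not paired by replicate number in the main fit. Deviations of same-numbered arrays correlated at -0.31 to 0.30 over all pairs of groups, and in no comparison above 0.1 for every pair. With so few arrays in a group these correlations cannot tell whether same-numbered samples were matched. With the replicate number as a block, 0 genes were lower over fetal culture and 6 were higher in adult organoids at day 3.

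Scaling moved the split of calls over all genes. In adult against P0 tissue, 4596 were higher and 3732 lower, and with centred arrays 3079 and 4592. Over fetal culture, 2079 were higher and 2689 lower, and with centred arrays 3487 and 1829. In fetal organoids against P0 tissue, 9378 were higher and 4224 lower, and with centred arrays 6097 and 5139. In adult against fetal organoids at day 30, 2088 were higher and 666 lower, and with a second quantile normalization 1365 and 1246.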
